A study of Homo sapiens with 6 samples.

Results

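The NF-kappaB subunits NFKB1, NFKB2, REL, RELA and RELB and the feedback and signalling genes NFKBIA, NFKBIE, TNFAIP3, BIRC3 and IKBKE were examined in a gemcitabine-resistant gallbladder cancer line. The 10 genes were taken by name from the deposited count table of 63140 genes, and all 10 were among the 14386 genes with enough counts to be tested. The resistant line, NOZ-R, was derived from the established human gallbladder cancer line NOZ by raising the dose of gemcitabine, a nucleoside analogue, in steps. RNA-seq of poly-A RNA was available for 3 NOZ-R libraries and 3 NOZ libraries, and neither the final dose nor the presence of the drug at harvest is given in the labels. NOZ-R is a single selected line, and nothing in the labels says that its replicates were separate cultures. The p-values therefore speak only to the variation among libraries, which may be technical. In such bulk samples a change in the share of cells that express a gene and a change in RNA per cell cannot be told apart.

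NF-kappaB is a family of dimeric transcription factors that carry signals from cytokine receptors, Toll-like receptors and stress to genes of inflammation and survival. In resting cells the dimers are held in the cytoplasm by IkappaB proteins. Receptors activate the IKK kinase complex, which marks IkappaB for degradation and frees the dimers to enter the nucleus. Among the genes they then switch on are several of their own subunits and the inhibitors that end the signal. NFKBIA, TNFAIP3 and BIRC3 are textbook examples of such feedback targets.

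Because the factors bind a short DNA element, the kappaB site, the promoters of the feedback genes are shown before the values, with stretches that match the kappaB consensus in capitals. The sequences are from RefSeq (GRCh38.p14), are written on the gene's own strand and lie upstream of the annotated start, apart from at most 30 bases inside an exon of a GENCODE transcript that starts further upstream. They come from chr6:137867009-137867217 (plus strand) for TNFAIP3, chr11:102317234-102317479 (plus strand) for BIRC3 and chr14:35404750-35404999 (minus strand) for NFKBIA. For the subunit genes NFKB1 (chr4:102501290-102501339, plus strand) and REL (chr2:60881507-60881550, plus strand) only the stretch around the capitals is given. The subunit gene NFKB2 also held matches but is not shown.
TNFAIP3: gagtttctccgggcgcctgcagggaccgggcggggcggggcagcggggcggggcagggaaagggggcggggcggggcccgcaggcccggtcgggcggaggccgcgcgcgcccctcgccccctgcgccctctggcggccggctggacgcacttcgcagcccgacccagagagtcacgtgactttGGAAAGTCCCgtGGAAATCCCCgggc
BIRC3: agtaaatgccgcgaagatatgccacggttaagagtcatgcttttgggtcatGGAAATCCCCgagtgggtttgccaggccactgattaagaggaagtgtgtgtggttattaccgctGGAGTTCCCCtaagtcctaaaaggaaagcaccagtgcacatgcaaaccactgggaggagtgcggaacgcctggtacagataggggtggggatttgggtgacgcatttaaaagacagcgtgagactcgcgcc
NFKBIA: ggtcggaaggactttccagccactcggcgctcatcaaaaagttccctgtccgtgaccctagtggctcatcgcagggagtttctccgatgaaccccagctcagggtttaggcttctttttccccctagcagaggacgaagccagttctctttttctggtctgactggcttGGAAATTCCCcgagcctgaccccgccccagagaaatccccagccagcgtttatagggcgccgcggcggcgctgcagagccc
NFKB1: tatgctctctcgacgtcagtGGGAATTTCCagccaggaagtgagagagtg
REL: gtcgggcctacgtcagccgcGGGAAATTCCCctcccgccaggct

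The consensus is 10 bases long and was searched on both strands in the 250 bases before each annotated start, with overlapping matches counted apart. TNFAIP3 held 2 matches, 67 and 55 bases from the transcript start, BIRC3 held 2, at 199 and 135 bases, and NFKBIA held 1, at 81 bases. NFKB1 held 1 match, at 49 bases, in its window before position 102501359 and 0 in its window before position 102501934. REL held 2 overlapping matches at 47 and 46 bases. NFKB2 held matches in 2 of its 3 windows, whereas RELA, with 2 windows, and IKBKE, with 1, held none. RefSeq windows were found for 8 of the 10 genes. Of these 8 genes, 6 held a match in at least 1 window, against 6.28% of the 27305 genes with a window. A match describes the letters only and is no measure of binding. The 6 genes with a match include NFKB2 and REL, which did not pass the test below.

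Of the 10 genes, 6 were higher in NOZ-R, 0 were lower and 4 did not pass edgeR's quasi-likelihood test at a Benjamini-Hochberg adjusted p of 0.05 over all genes. At the same threshold 30.4% of the tested genes were higher and 29.8% lower, so the background of differences between the lines was large. Scaled by library size alone, 37.8% of calls were increases, against 50.5% here, and the median of all genes was -0.141, against -0.0127; the same 6 members were called. In the same 6 genes every NOZ-R library lay above every NOZ library, which was the case for 32.9% of tested genes, and the reverse order, found in 32.4% of tested genes, occurred in 0 members. No member was lower at an unadjusted p of 0.05 (0 of 10), and DESeq2 also called 0 lower. The median log2 fold change of the 10 genes was 0.62, against -0.01 over all genes tested. Levels below are in CPM, the count relative to library size, scaled with edgeR's TMM factors, which allow for differences in RNA composition.

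TNFAIP3 (chromosome 6, 137867188 to 137883312, GRCh38), which encodes a ubiquitin-editing enzyme that shuts off signalling from tumour necrosis factor and Toll-like receptors, showed the widest difference. Its level was 60.2, 64.7 and 58.2 CPM in the NOZ-R libraries, against 8.42, 8.74 and 8.04 CPM in the NOZ libraries. Replicates of either line lay close together, and the lines were far apart. TNFAIP3 was 7.25-fold higher in NOZ-R (95% interval 6.37 to 8.25), a log2 fold change, with its SE, of 2.86 ± 0.0866 (adjusted p = 9.03e-12 by edgeR). It ranked 374 of 14386 by size of increase. An antisense gene model, listed as WAKMAR2, shares 95 exon bases with TNFAIP3 and had 44, 34 and 51 counts in NOZ-R and 7, 16 and 6 in NOZ. These counts are small beside the 869 to 1090 counts of TNFAIP3 in NOZ-R and 119 to 169 in NOZ, but no step that marks strand is described, so reads of the shared bases cannot be told apart.

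BIRC3 (chromosome 11, 102317450 to 102339403) encodes a cellular inhibitor of apoptosis protein, a ubiquitin ligase at the tumour necrosis factor receptor complex. It measured 103.0, 116.0 and 129.0 CPM in NOZ-R and 19.6, 27.2 and 21.0 CPM in NOZ. The lowest NOZ-R library was thus well above the highest NOZ library. BIRC3 was 5.13-fold higher in NOZ-R (95% interval 4.33 to 6.08, log2 fold change 2.36 ± 0.114, SE, edgeR adjusted p = 9.27e-10). TNFAIP3 and BIRC3 were the members called when the test was made against a 2-fold change (2 of 10 members), a test that called 5.89% of all tested genes higher and 3.07% lower.

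NFKBIA (chromosome 14, 35401511 to 35404749), which encodes IkappaB-alpha, the inhibitor that is degraded and resynthesised within a signalling cycle, measured 60.5, 50.0 and 52.1 CPM in NOZ-R against 30.8, 30.5 and 30.8 CPM in NOZ. The NOZ libraries were nearly identical, and NOZ-R replicate 1 was the highest of its line. The gene was 1.77-fold higher in NOZ-R (95% interval 1.56 to 2.0, log2 fold change 0.82 ± 0.0830, SE, edgeR adjusted p = 1.54e-06). NFKBIE (chromosome 6, 44258166 to 44265788), which encodes IkappaB-epsilon, measured 7.89, 6.49 and 6.22 CPM in NOZ-R and 4.59, 3.87 and 3.24 CPM in NOZ, without overlap between the lines. Its log2 fold change, with its SE, of 0.81 ± 0.168 (adjusted p = 0.000965 by edgeR) was close in size to that of NFKBIA, with a wider interval of 0.44 to 1.17.

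**Figure D1:**
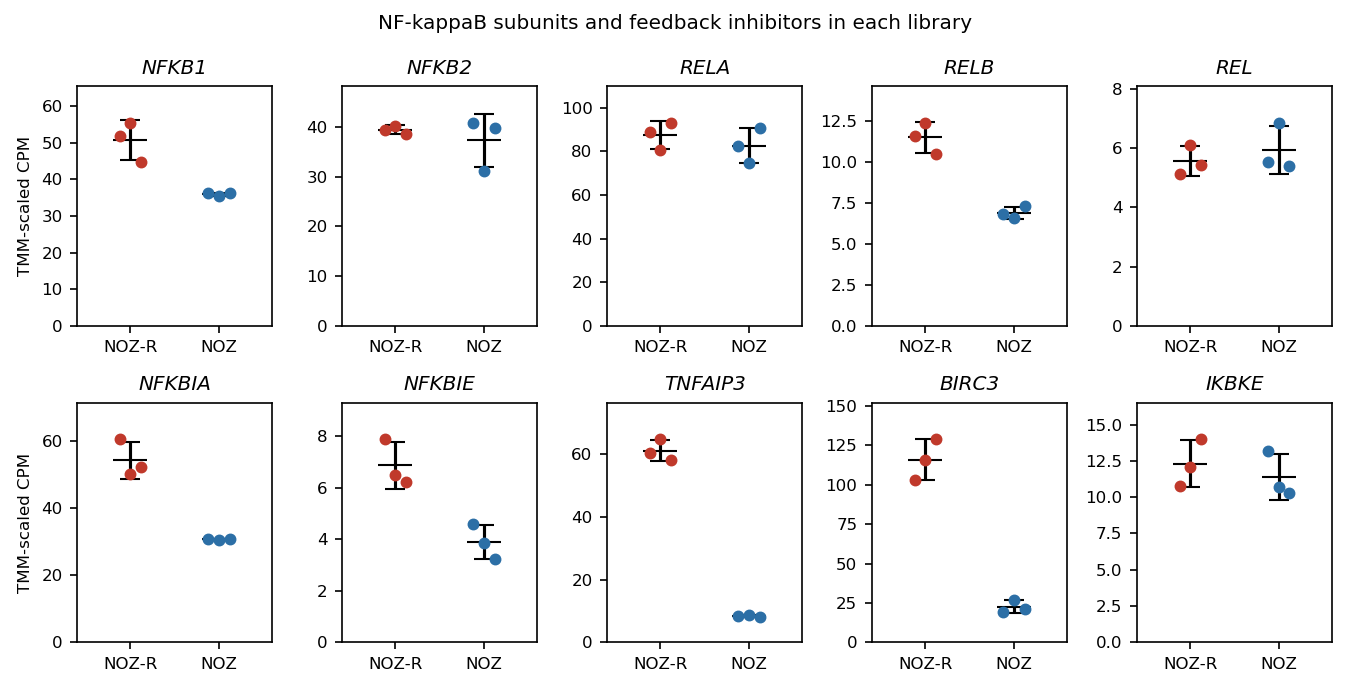
Level of each gene in every library, in TMM-scaled CPM, with each vertical axis starting at 0. Points are the 3 libraries of NOZ-R (left, red) and NOZ (right, blue), horizontal bars are means and whiskers are SD. TNFAIP3, BIRC3, NFKBIA, NFKBIE, RELB and NFKB1 show no overlap between the lines, while NFKB2, RELA, REL and IKBKE do.

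Among the subunits, RELB and NFKB1 rose. RELB (chromosome 19, 45001430 to 45038198), the partner of the processed NFKB2 product in the non-canonical pathway, measured 11.6, 12.4 and 10.5 CPM in NOZ-R and 6.83, 6.58 and 7.30 CPM in NOZ. Every NOZ-R value exceeded every NOZ value, and RELB was 1.67-fold higher in NOZ-R (95% interval 1.39 to 2.0, log2 fold change 0.74 ± 0.120, SE, edgeR adjusted p = 0.000123). NFKB1 (chromosome 4, 102501329 to 102617302) encodes a precursor that acts as an inhibitor and is processed to a DNA-binding subunit without an activation domain. It measured 51.9, 55.5 and 44.7 CPM in NOZ-R and 36.2, 35.5 and 36.2 CPM in NOZ, so that the lowest resistant library stood clear of the tightly grouped parental ones. The log2 fold change was 0.50 ± 0.0840 (SE; adjusted p = 0.000175 by edgeR), or 1.41-fold.

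RELA, the main activating subunit, and NFKB2, the precursor of the non-canonical DNA-binding subunit, overlapped between the lines. RELA (chromosome 11, 65653596 to 65663094) measured 88.8, 80.4 and 93.1 CPM in NOZ-R against 82.5, 74.4 and 90.5 CPM in NOZ. With a log2 fold change of 0.09 and a 95% interval of -0.09 to 0.26 (edgeR adjusted p = 0.375), a rise of more than 1.20-fold lay outside its interval. NFKB2 (chromosome 10, 102394110 to 102402529) measured 39.5, 40.3 and 38.6 CPM in NOZ-R and 40.9, 31.2 and 39.8 CPM in NOZ. NOZ replicate 2 was the low library, and the log2 fold change was 0.08, with an interval of -0.13 to 0.29 (edgeR adjusted p = 0.489). REL, a subunit best known from lymphoid cells, measured 5.13, 6.12 and 5.42 CPM in NOZ-R and 5.53, 6.86 and 5.41 CPM in NOZ. The lines overlapped, and REL had only 81 to 99 counts per NOZ-R library and 80 to 124 per NOZ library. Its log2 fold change was -0.10, with an interval of -0.43 to 0.23 (edgeR adjusted p = 0.60). REL (chromosome 2, 60881521 to 60931610) shares 5702 exon bases with a non-coding model on the same strand, which was listed at 0 counts in all 6 libraries.

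IKBKE (chromosome 1, 206470476 to 206496889) encodes an IKK-related kinase, the close relative of TBK1, that acts in interferon induction as well as on NF-kappaB. It measured 10.8, 12.1 and 14.0 CPM in NOZ-R and 13.2, 10.7 and 10.3 CPM in NOZ. The libraries of the lines were interleaved (an antisense gene shares 156 exon bases and had at most 9 counts), and the log2 fold change was 0.10, with an interval of -0.19 to 0.38 (edgeR adjusted p = 0.550).

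**Figure D2:**
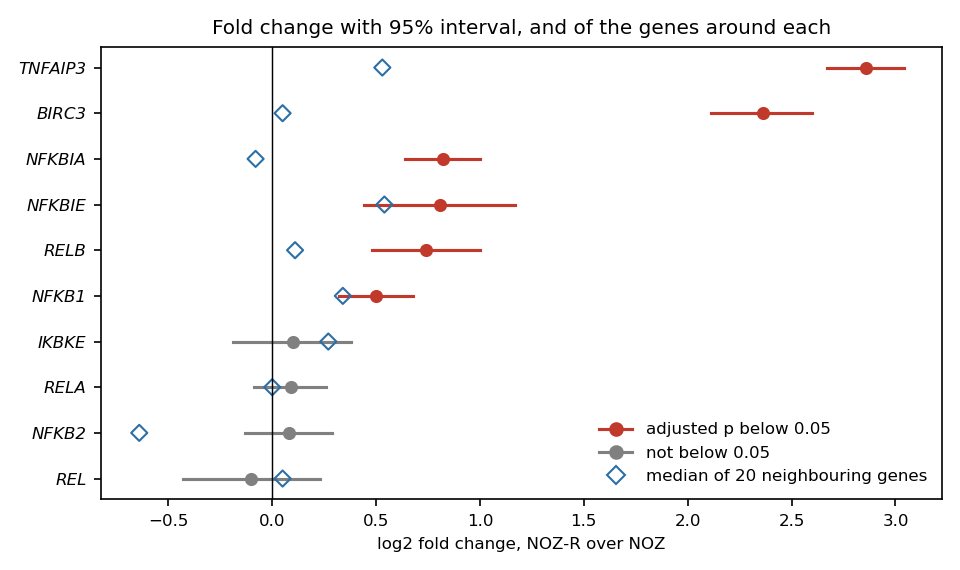
Log2 fold change of NOZ-R over NOZ for the 10 genes, with 95% intervals from the edgeR fit (circles and lines), and the median log2 fold change of the 20 nearest tested genes (open diamonds). TNFAIP3 at 2.86 and BIRC3 at 2.36 lie far from their neighbours' medians of 0.53 and 0.05, and NFKB2 at 0.08 lies above its neighbours' median of -0.64.

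Whole chromosomes differed between the lines, so each gene was set beside its 10 nearest tested genes on either side. Around BIRC3 the median log2 fold change of the 20 neighbours was 0.05, with 9 higher and 8 lower, around NFKBIA it was -0.08, and around RELB 0.11. TNFAIP3 and NFKBIE, both on chromosome 6, lay among genes that were mostly higher, with neighbour medians of 0.53 and 0.54 and 13 of 20 higher in each case. NFKB1 also lay among higher genes, with a neighbour median of 0.34 and 11 of 20 higher. The fold changes of NFKBIE and NFKB1 thus exceeded those around them by small amounts, whereas that of TNFAIP3 did so by a wide margin.

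NFKB2 lay in a region that was lower in NOZ-R. Of its 20 neighbours 16 were lower and 1 was higher, with a median of -0.64, and the median of chromosome 10 was -0.60. With the median of each chromosome removed in the fit, NFKB2 stood at 0.68 on the log2 scale (adjusted p = 4.98e-05 by edgeR), and 7 of the 10 genes were then called higher. In that fit NFKB1 had 0.33 (edgeR adjusted p = 0.00402) and NFKBIE 0.46 (edgeR adjusted p = 0.0325). Copy number was not measured.

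Levels can be compared between genes only per length, for which the deposited FPKM values (fragments per length of the gene and size of the library) were used. They carry no composition correction, so genes are ordered within a line. In NOZ-R the order was led by RELA at 15.3 ± 1.14 FPKM, NFKBIA at 15.3 ± 1.64 FPKM and BIRC3 at 14.8 ± 1.56 FPKM (SD, n = 3), which did not differ beyond their spread. In NOZ RELA stood alone at 15.8 ± 1.53 FPKM, followed by NFKBIA at 9.46 ± 0.0390 FPKM and NFKB2 at 6.99 ± 0.984 FPKM (SD, n = 3). TNFAIP3 stood at place 4 in NOZ-R, with 9.06 ± 0.492 FPKM, and at place 9 in NOZ, with 1.36 ± 0.0574 FPKM (SD, n = 3 each). BIRC3 was at place 4 in NOZ, with 3.16 ± 0.569 FPKM (SD, n = 3).

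The middle of the order in NOZ-R held NFKB2 at 6.76 ± 0.153 FPKM, RELB at 3.67 ± 0.299 FPKM, IKBKE at 3.10 ± 0.393 FPKM and NFKB1 at 3.09 ± 0.336 FPKM (SD, n = 3). In NOZ IKBKE measured 3.15 ± 0.413 FPKM, RELB 2.41 ± 0.127 FPKM and NFKB1 2.40 ± 0.0223 FPKM (SD, n = 3). IKBKE and NFKB1 did not differ beyond their spread in NOZ-R, nor did BIRC3 and IKBKE, or RELB and NFKB1, in NOZ. NFKBIE measured 2.55 ± 0.343 FPKM in NOZ-R and 1.58 ± 0.268 FPKM in NOZ (SD, n = 3 each). In NOZ, NFKBIE and TNFAIP3, at 1.36 ± 0.0574 FPKM, did not differ beyond their spread (SD, n = 3). REL was lowest in both lines, at 0.310 ± 0.0274 FPKM in NOZ-R and 0.362 ± 0.0498 FPKM in NOZ (SD, n = 3 each).

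The order depends on the gene length behind the FPKM. The deposited values imply a length of 15679 bases for NFKB1, whereas its exons cover 6257 bases in GENCODE release 29 and its principal coding transcript has 4085. With principal transcript lengths, NFKB1 stood at 11.9 in NOZ-R and 9.21 in NOZ, places 6 and 4 instead of places 8 and 7. NFKBIA, at 33.3, was then ahead of RELA, at 31.0, in NOZ-R, and RELA, at 31.9, ahead of NFKBIA, at 20.6, in NOZ. In NOZ-R these genes did not differ beyond their spread (SD of 3.57 for NFKBIA and 2.3 for RELA, n = 3). In NOZ, TNFAIP3 was then at place 8, above NFKBIE, and BIRC3 at place 5, while in NOZ-R they were at places 4 and 3 as before. TNFAIP3 and NFKBIE, at 1.86 ± 0.0781 and 1.58 ± 0.268 in NOZ, did not differ beyond their spread (SD, n = 3). On these lengths, however, TNFAIP3 in NOZ-R, at 12.3 ± 0.669, no longer differed beyond the spread from NFKB2 or NFKB1. Those stood at 12.2 ± 0.276 and 11.9 ± 1.29 in NOZ-R (SD, n = 3). REL was at place 10 in both lines on either length.

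**Figure D3:**
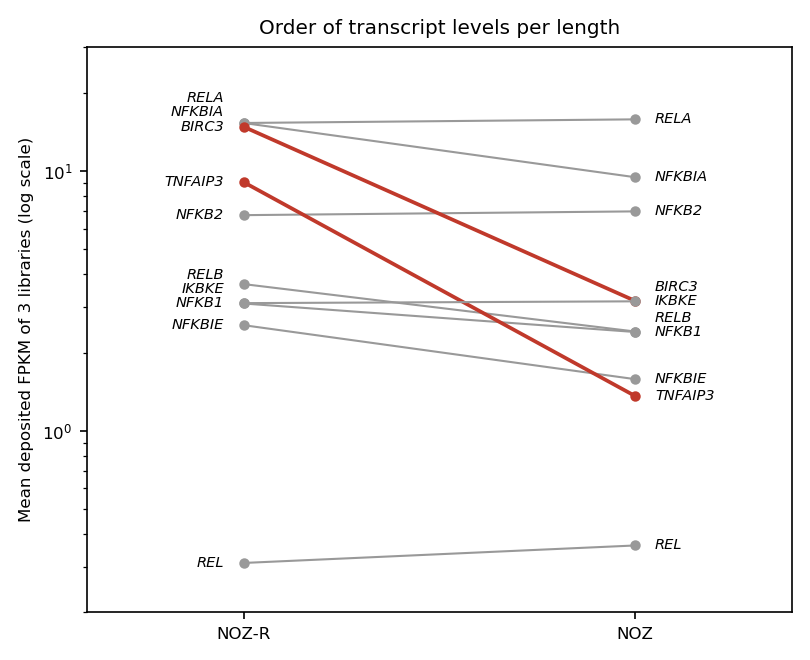
Mean deposited FPKM of 3 libraries for each gene in NOZ-R (left) and NOZ (right), on a log axis. The red lines mark BIRC3 and TNFAIP3, which stand at places 3 and 4 in NOZ-R and at places 4 and 9 in NOZ.

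The subunit make-up was expressed as each gene's share of the summed FPKM of the 5 subunits. RELB took 12.5%, 13.8% and 11.4% in the NOZ-R libraries, against 8.33%, 9.12% and 8.47% in the NOZ libraries. The difference of 3.95 percentage points had an exact permutation p of 0.1 (two-sided), the smallest that 3 against 3 libraries allow, and an adjusted p of 0.25 over the 5 subunits, so it did not pass. NFKB1 took 10.6% ± 1.25 in NOZ-R and 8.62% ± 0.709 in NOZ, and NFKB2 23.2% ± 0.803 in NOZ-R and 24.9% ± 1.8 in NOZ (SD, n = 3 each). RELA made up 52.5% ± 3.27 in NOZ-R and 56.5% ± 1.19 in NOZ, and REL 1.07% ± 0.113 in NOZ-R and 1.31% ± 0.305 in NOZ (SD, n = 3 each). The lines overlapped in the shares of these 4 subunits, and RELA was the most abundant subunit transcript in all 6 libraries. With principal transcript lengths the RELB shares were 7.95% ± 0.687 in NOZ-R and 5.49% ± 0.239 in NOZ, and those of NFKB1 were 19.7% ± 2.21 in NOZ-R and 16.1% ± 1.23 in NOZ (SD, n = 3 each).

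**Figure D4:**
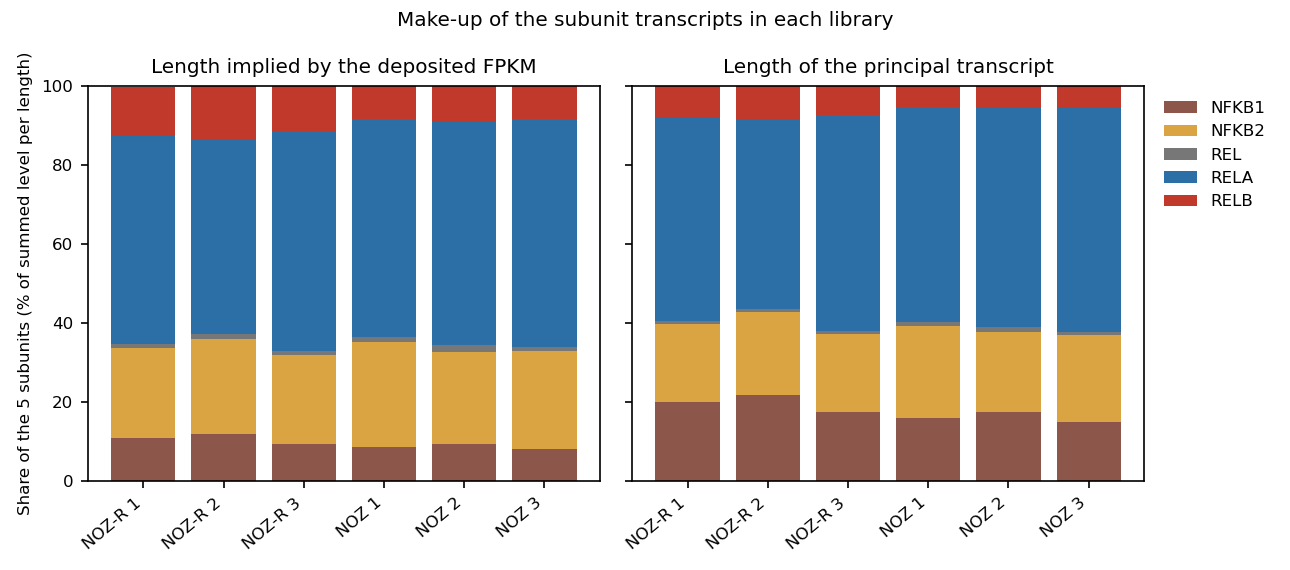
Share of each subunit in the summed level per length of the 5 subunits, in percent, for the 3 NOZ-R and 3 NOZ libraries. The left panel uses the lengths implied by the deposited FPKM and the right panel principal transcript lengths. RELA holds the largest share in every bar, and the RELB share is larger in each NOZ-R library than in any NOZ library.

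The rest of the pathway was described from lists ordered by role. Of 4 other IkappaB family genes, NFKBIB, another classical inhibitor, was higher at 25.1 ± 0.615 CPM in NOZ-R against 13.7 ± 1.26 CPM in NOZ (log2 fold change 0.87, edgeR adjusted p = 2.78e-06). NFKBIZ, which encodes a nuclear IkappaB protein that acts as a cofactor, was lower at 80.1 ± 3.46 CPM in NOZ-R against 132.0 ± 6.61 CPM in NOZ (log2 fold change -0.72, edgeR adjusted p = 3.76e-07, SD, n = 3 each). The nuclear family members BCL3 and NFKBID, at 0.29 and 0.12 on the log2 scale, did not pass. The classical inhibitors NFKBIA, NFKBIB and NFKBIE were thus all higher in the resistant line. NFKBIB shares 40 exon bases with SIRT2 on the opposite strand.

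The kinases went both ways. Of 11 genes of the IKK complex and its activating kinases, 5 were higher and 3 lower, with a median log2 fold change of 0.09. Over all tested genes 30.4% were called higher and 29.8% lower. TAB2, an adaptor of the TAK1 kinase, rose by a log2 value of 0.77 (adjusted p = 3.59e-07 by edgeR) and MAP3K14, the NIK kinase of the non-canonical pathway, by 0.50 (adjusted p = 0.000473). Overlapping antisense genes share 713 exon bases with MAP3K14 and 245 and 292 with TAB3, so their reads cannot be told apart without strand. The catalytic subunit gene CHUK had -0.69 and the TAK1 adaptor gene TAB3 -0.73 (edgeR adjusted p = 2.58e-06 and 0.000170). With chromosome medians removed both calls were lost: CHUK, on chromosome 10, had -0.09 (edgeR adjusted p = 0.304) and TAB3, on chromosome X, had -0.28 (edgeR adjusted p = 0.066). TAB2, on chromosome 6, then had 0.42 (edgeR adjusted p = 0.000115). The count of higher genes depended on the processing. It was 2 with library size as the only scaling and in both limma fits, where 3 genes were lower, and 3 with DESeq2, at a threshold of 0.01, with chromosome medians removed, without NOZ-R replicate 1 and without NOZ replicate 3.

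Of 12 receptor genes, 8 were tested, of which 5 were higher and 2 lower, against 30.4% and 29.8% of all tested genes. TLR3, a receptor for double-stranded RNA, had 330 counts over the NOZ-R libraries and 3 over the NOZ libraries, 118.0 times as many per library size, with 40.1 to 577.0 as the 95% interval from counting error. The interleukin receptor gene IL1R1 had 47, 30 and 35 counts in NOZ-R and 0 in every NOZ library, at least 40.1-fold higher when NOZ is set to 3 counts over the group. TNFRSF1B and TLR4 had log2 fold changes of -0.37 and -0.34 (edgeR adjusted p = 0.00670 and 0.00353). TLR4, on chromosome 9, had 0.28 (edgeR adjusted p = 0.0120) with chromosome medians removed, so its direction depends on that choice. TLR2 had 0 counts in all libraries, and CD40, TNFRSF11A and TLR5 had too few to be tested.

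Among 17 adaptors and ubiquitin ligases the test called 9 higher and 4 lower (median 0.22), against 30.4% and 29.8% of all tested genes. MYD88, the adaptor of Toll-like and interleukin receptors, measured 125.0 ± 5.37 CPM in NOZ-R and 58.8 ± 2.37 CPM in NOZ (SD, n = 3 each), which gave 1.09 as log2 fold change (adjusted p = 6.52e-09 by edgeR). RBCK1, a component of the linear ubiquitin ligase, rose by 0.86 (edgeR adjusted p = 1.88e-07). The kinases that MYD88 recruits differed in the other direction, with IRAK1 at -0.72 and IRAK4 at -0.60 (edgeR adjusted p = 8.55e-07 and 1.64e-05). With chromosome medians removed IRAK1, on chromosome X, had -0.27 (edgeR adjusted p = 0.00424). BIRC2, the paralogue next to BIRC3 on chromosome 11, was named after its values were seen. It measured 173.0 ± 11.5 CPM in NOZ-R and 102.0 ± 16.9 CPM in NOZ (SD, n = 3 each), which gave 0.75 as log2 fold change (adjusted p = 1.43e-05 by edgeR) beside the 2.36 of BIRC3.

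Of 12 other negative regulators, 10 were tested, and the calls were 4 higher and 2 lower (median 0.11). These counts were near the shares over all tested genes, 30.4% higher and 29.8% lower. ZC3H12A, a ribonuclease that degrades cytokine transcripts, measured 25.8 ± 1.43 CPM in NOZ-R and 8.58 ± 0.650 CPM in NOZ (SD, n = 3 each), which gave 1.59 as log2 fold change (adjusted p = 1.32e-08 by edgeR). TNIP1, a ubiquitin-binding partner of the TNFAIP3 protein, rose by 0.87 (edgeR adjusted p = 3.63e-08). The deubiquitinase gene OTULIN had -0.24 (edgeR adjusted p = 0.00539). ITCH, a ubiquitin ligase that works with the TNFAIP3 protein, had -0.18 (edgeR adjusted p = 0.0417). That call was lost on leaving out NOZ-R replicate 1, 2 or 3 or NOZ replicate 1, which leaves 1 lower gene. It was also lost with DESeq2 (adjusted p = 0.115), GC correction (edgeR adjusted p = 0.0693) and chromosome medians removed (edgeR adjusted p = 0.205). The call was absent too without a filter, at the threshold of 0.01 and against a 2-fold change. CYLD, a deubiquitinase of the pathway, had 0.13 (edgeR adjusted p = 0.148).

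Targets with cytokine, adhesion and survival roles were mostly higher. Of 35 genes 31 were tested, with 28 called higher, 1 called lower and 2 uncalled, and their median log2 fold change was 2.01. This list, like the members and the other lists, was chosen with earlier results of these data known. Its counts are therefore descriptive. Over all tested genes 30.4% were called higher and 29.8% lower. Against a 2-fold change 18 of the targets were called higher and 0 lower, where 5.89% and 3.07% of all tested genes were. The complement gene C3 measured 220.0 ± 6.77 CPM in NOZ-R and 1.38 ± 0.491 CPM in NOZ (SD, n = 3 each), which gave 7.31 as log2 fold change (adjusted p = 5.31e-14 by edgeR). The adhesion gene VCAM1 had 136, 149 and 109 counts in NOZ-R and 0 in every NOZ library, at least 141.0-fold higher with NOZ at 3 counts over the group. TNFAIP2 was the lower gene, at -0.39 (edgeR adjusted p = 0.000192), with -0.21 when chromosome medians were removed (edgeR adjusted p = 0.0159). The count of lower genes was 2 with upper-quartile scaling, with library size as the only scaling and in both limma fits. It was also 2 without NOZ-R replicate 3 and with a filter of 1 CPM in 3 libraries. TNFAIP8, at -0.17, lay just short of the threshold (edgeR adjusted p = 0.051). TNF, at 0.99, was the other uncalled gene (edgeR adjusted p = 0.0962). Many of these targets, among them TAP1, PSMB9 and IRF1, are known to be induced by interferon as well.

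**Figure D5:**
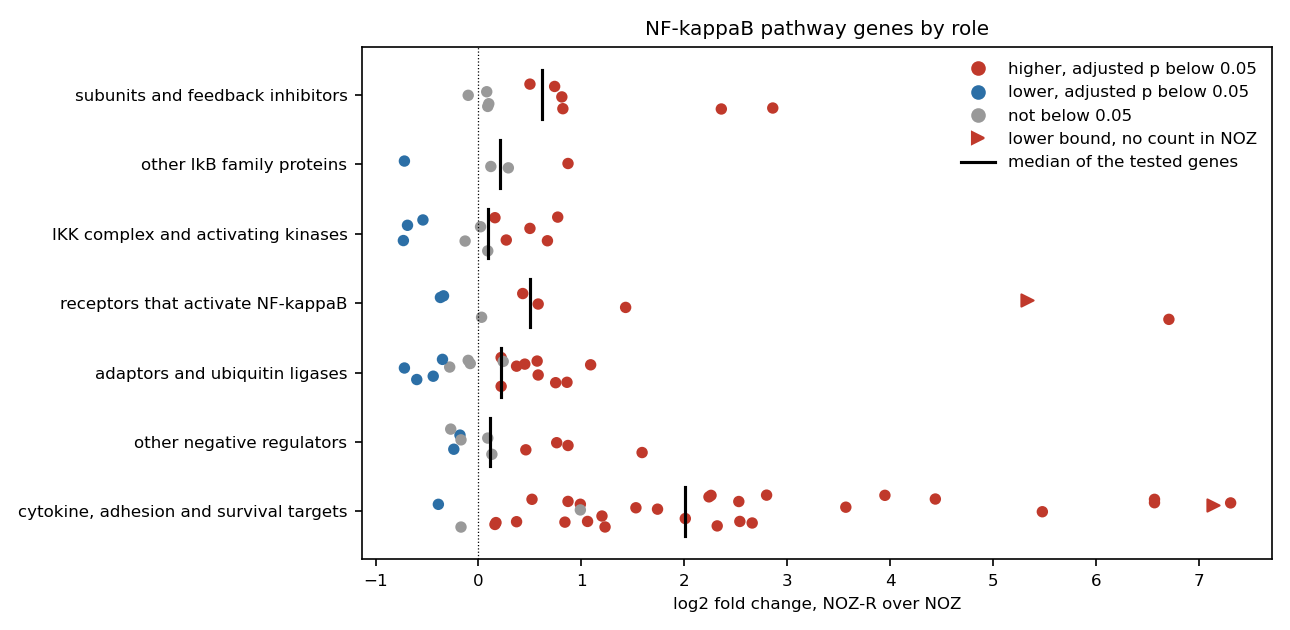
Log2 fold change of NOZ-R over NOZ for every tested gene of the 10 subunit and feedback genes and of the other 6 lists, with the median of each as a black bar. Red points passed the test as higher, blue points as lower, and triangles are lower bounds for IL1R1 and VCAM1, which had no count in NOZ. The medians lie between 0.09 for the kinases and 2.01 for the targets.

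NF-kappaB genes are also abundant in leukocytes and stromal cells, so markers were measured beside them. All 9 epithelial and biliary markers were tested, with summed levels of 3530 to 3610 CPM in NOZ-R and 2670 to 3150 CPM in NOZ. Of these 9, KRT7, KRT8, KRT18 and MUC1 were called higher, EPCAM, CLDN4 and CDH1 lower, and KRT19 and SOX9 did not pass. KRT7 measured 822.0 ± 20.7 CPM in NOZ-R and 389.0 ± 30.3 CPM in NOZ. CLDN4 had 76.6 ± 3.51 CPM in NOZ-R and 146.0 ± 7.51 CPM in NOZ. EPCAM had 49.4 ± 1.63 CPM in NOZ-R and 72.9 ± 10.8 CPM in NOZ. The keratin genes KRT7, KRT8, KRT18 and KRT19 were abundant in both lines, while CDH1 was near 0 in both, at 0.289 ± 0.173 CPM in NOZ-R and 1.03 ± 0.261 CPM in NOZ (SD, n = 3 each). The 11 leukocyte markers summed to 8.88 to 9.58 CPM in NOZ-R and 8.68 to 15.7 CPM in NOZ, 7 of them had too few counts to be tested, and MS4A1 was at 0 in all 6 libraries. Of the 4 tested, CSF1R (1.85 ± 0.485 CPM in NOZ-R and 0.505 ± 0.0824 CPM in NOZ) and LYZ (1.13 ± 0.222 CPM in NOZ-R and 0.407 ± 0.116 CPM in NOZ) were higher. CD79A was lower, at 2.20 ± 0.379 CPM in NOZ-R and 7.30 ± 2.17 CPM in NOZ (SD, n = 3 each), and CD14 did not pass. The 11 fibroblast and endothelial markers summed to 16 to 17.3 CPM in NOZ-R and 5.75 to 6.02 CPM in NOZ, with PECAM1, the largest part in NOZ-R, at 9.20 CPM in NOZ-R and 1.86 CPM in NOZ. Of these 4 were tested, and PECAM1 and COL3A1 (3.15 ± 0.821 CPM in NOZ-R and 0.383 ± 0.345 CPM in NOZ, SD, n = 3 each) were higher. COL1A1 and PDGFRB did not pass (edgeR adjusted p = 0.0548 and 0.147). COL1A1 pointed the other way, at 1.79 ± 0.212 CPM in NOZ-R and 2.59 ± 0.414 CPM in NOZ (SD, n = 3 each), without overlap. Among the 7 untested markers of this list, DCN had 19, 12 and 6 counts in NOZ-R and LUM 5, 6 and 14. Both were at 0 in every NOZ library. CDH5 had 7, 11 and 2 counts in NOZ-R against 13, 8 and 8 in NOZ, with overlap in CPM. The remaining untested markers, COL1A2, THY1, VWF and KDR, were near 0 in both lines. The part of these markers in the results was not tested.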

How the data were processed

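RNA-seq libraries of NOZ-R and NOZ cells, 3 each, were grouped by their titles. The submitters' processing notes name fastp 0.22.0 and build GRCh38. Which aligner, counter, strand setting and annotation were used is not given in the sources used here. The authors deposited raw counts per gene and FPKM values. A deposited FPKM value is the gene's count over the library's total and over 1 fixed gene length, with no composition correction. Library totals lay between 14136037 and 19244923 counts, similar in both lines, and mitochondrial genes took 5.80% to 6.32%. No duplicate library was found, with a mean chi-square per gene of 2.18 to 11.3 between replicates; the 2 pairs with NOZ replicate 2 were the highest.

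Tests on counts used edgeR 4.0.16 with R 4.3.3 (filterByExpr, TMM, quasi-likelihood test of NOZ-R against NOZ, Benjamini-Hochberg over 14386 genes at 0.05). SE is the log2 fold change divided by the square root of F. Subunit shares were tested with an exact permutation test. Counting intervals cover counting error only. The code was tested on simulated data. Positions and lengths are from GENCODE 29, promoters from RefSeq. Alternatives were other scalings and filters, DESeq2 1.42.0, limma 3.58.1 on log2(FPKM + 1) and log2(FPKM + 0.1), a replicate block, GC and chromosome corrections, leaving out libraries, a test against a 2-fold change and a stricter threshold, 0.01.

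The members and lists were chosen with earlier results of these data known. Named beside the members were up to 2 increases and 2 decreases per list, by log2 fold change, among called genes that averaged at least 1 CPM and did not overlap between lines; genes named among markers, untested genes, interferon-inducible targets and those that did not pass fall outside that rule.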

Additional observations from a re-analysis of the deposited data

How the results depend on the processing

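The 6 calls among the 10 genes (NFKB1, RELB, NFKBIA, NFKBIE, TNFAIP3 and BIRC3) kept direction and call in all 19 alternatives except the test against a 2-fold change, which called 2 members, and 847 genes higher and 442 lower in all. The log2 fold change lay between 2.09 and 2.89 for TNFAIP3, between 1.93 and 2.57 for BIRC3, between 0.45 and 0.80 for RELB and between 0.26 and 0.58 for NFKB1. All 4 lower ends came from limma on log2(FPKM + 1). The added 1 shrinks the differences of genes at low FPKM, and FPKM values also carry no composition correction. With 0.1 added instead, the values were 2.64, 2.2, 0.58 and 0.35, in the same order. Counts scaled by library size alone gave 2.73, 2.23, 0.61 and 0.37. Among the fits on counts the lowest values were 2.51, 2.23, 0.61 and 0.33, in the same order. With chromosome medians removed NFKB2 passed at 0.68 and TLR4 turned to 0.28; REL, RELA and IKBKE passed in no alternative, and the sign turned in 4 of 19 alternatives for NFKB2, 2 for REL, 3 for RELA and 5 for IKBKE. Library size as the only scaling gave 3318 higher and 5465 lower genes, against 4379 and 4284. With the replicate number as a block 4324 genes were higher and 4180 lower and 6 members were called, and the block removed the call of ITCH. Same-numbered libraries showed correlations of 0.0682, -0.0224 and -0.0365 in their deviations, and libraries of different number -0.0874 to 0.104. No pairing by number was thus visible, though 3 libraries per line are too few to decide. Leaving out 1 library gave 4017 to 4634 higher and 3833 to 4328 lower genes and 6 members called each time. With principal transcript lengths, chosen after seeing the data, the share differences were 3.60 points for NFKB1 and 2.46 for RELB, since that length shortens NFKB1 most; without REL, also added later, they were 2.0 and 3.97. CPM per implied length gives the same shares by construction. Without NOZ-R replicate 2 the count of higher genes among the other IkappaB family was 2. Among the members REL and NFKBIE had the fewest counts and the largest SE.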
